A study of Mus musculus with 10 samples.

Results

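The 46 genes described here encode axon guidance ligands and receptors and were chosen as a fixed list of mouse symbols. The rule used no measured values, but the list was chosen with earlier results of these data known. They comprise 23 ligands and 23 receptors of 12 families: secreted class 3 and membrane-bound semaphorins, plexins, neuropilins, slits, robos, netrins, netrin receptors, neogenin, repulsive guidance molecules, ephrins and Eph receptors. All 46 were present in both expression tables, which held 26411 and 55886 features, and 44 passed the filter on low values in each. RNA-seq was done on 10 libraries of mouse trigeminal ganglion, the sensory ganglion of the face. In the surgery experiment, 3 libraries came from sham-operated mice and 3 from mice with the surgery named pIONT in the labels, all taken on day 10. In the injection experiment, 2 libraries followed an injection of phosphate-buffered saline (PBS) into the ganglion and 2 an injection of urocortin 1 (UCN1), a peptide of the corticotropin-releasing factor family, both taken 6 hours later. Strain, sex and age were not given in the sources used here, nor was whether a library held 1 ganglion or a pool.

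Axon guidance proteins steer growing axons by attraction or repulsion. Semaphorins signal through plexins, with neuropilins as co-receptors for the secreted class 3 members. Slits signal through robos, netrins through Dcc, neogenin and the Unc5 receptors, repulsive guidance molecules through neogenin, and ephrins through Eph receptor tyrosine kinases. Many of these genes stay expressed in the adult peripheral nervous system, where they have been studied in axon regrowth, in Schwann cell and vessel migration and in sensory innervation.

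Levels were deposited as FPKM, read counts scaled to gene length and library size, and were compared only within a table, because the tables used different gene lengths. Depth in genes, as recovered from the steps of low FPKM values, ranged from about 24200000 to 29700000 reads in sham and pIONT libraries and from 15700000 to 17100000 in PBS and UCN1 libraries. Tested members had an estimated 69 to 7439 reads per library in the first and 24 to 3950 in the second. Sensory neuron markers were high in both control groups, with Prph (peripherin) at 749 FPKM in sham and 787 FPKM in PBS libraries. Some libraries stood apart. The summed FPKM of 5 pituitary genes was 765 in sham 1 against 80.7 and 255 in sham 2 and 3, and that of 8 macrophage genes was 645 in pIONT 2 against 261 and 230 in pIONT 1 and 3. In the injection experiment the pituitary sum was 122 and 124 in PBS against 9.14 and 9.61 in UCN1 libraries, over the 6 pituitary genes found in that table. The summed FPKM of 8 fibroblast and meningeal genes was 1133 and 874 in PBS and 891 and 871 in UCN1 libraries, which overlapped, and 2 of the 8 were called lower, Mfap4 and Slc47a1.

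The surgery experiment compared guidance transcripts in the ganglion on day 10 after pIONT with sham. Members were called in both directions among the class 3 and membrane-bound semaphorins, the plexins and the Eph receptors. For the plexins the share called, 25%, was near that of all genes. The semaphorins Sema6a and Sema4f rose 6.97-fold and 1.93-fold as ratios of mean FPKM, while Sema7a fell to 0.507 of its sham level. Epha3, which passed the filter only through its pIONT libraries, rose 2.42-fold on the same ratio, more than Sema4f. The receptors Plxna4 and Nrp2 rose 1.55-fold and 1.33-fold, the ligand Rgmb rose 1.25-fold, and no slit, robo or ephrin member passed the test. In limma on log2(FPKM + 0.5), with a Benjamini-Hochberg adjusted p under 0.05 over all genes as the threshold for a call, 12 members were called higher and 7 lower, 43.2% of the 44 tested. Of all 14672 genes tested, 22.8% were called, 10.5% higher and 12.3% lower. As the list was chosen with earlier results known, these shares are a description and not a test. The median log2 fold change of the members was 0.03 against -0.02 for all genes, and the median of its absolute size was 0.21 against 0.13.

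In 28 of the 44 tested members (63.6%) no pIONT value lay within the range of sham or the reverse, as in 43.4% of all genes tested. Of the 19 called members, 9 were called in each alternative setting that tested them, of 15 run (other pseudocounts, filters, scalings and model options, and each library left out), 7 of them higher and 2 lower. These were Sema6a, Sema4f, Sema3c, Epha3, Plxna4, Nrp2 and Rgmb among the higher and Sema7a and Sema3f among the lower. Epha3 passed the filter of 0.5 FPKM only through its pIONT libraries and was not tested without pIONT 2, its highest library, or when 2 FPKM was required. Another 8 were called in 5 to 8 alternatives. Leaving out 1 library gave 13 called members without sham 1, 11 without sham 2, 11 without sham 3, 12 without pIONT 1, 11 without pIONT 2 and 15 without pIONT 3. The share called of all genes tested fell as well, from 22.8% to 15.3%, 14.1%, 11.5%, 16.8%, 16.0% and 20.2% in the same order. The part of the macrophage and pituitary transcripts of pIONT 2 and sham 1 in these values was not tested beyond those counts.

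**Figure D1:**
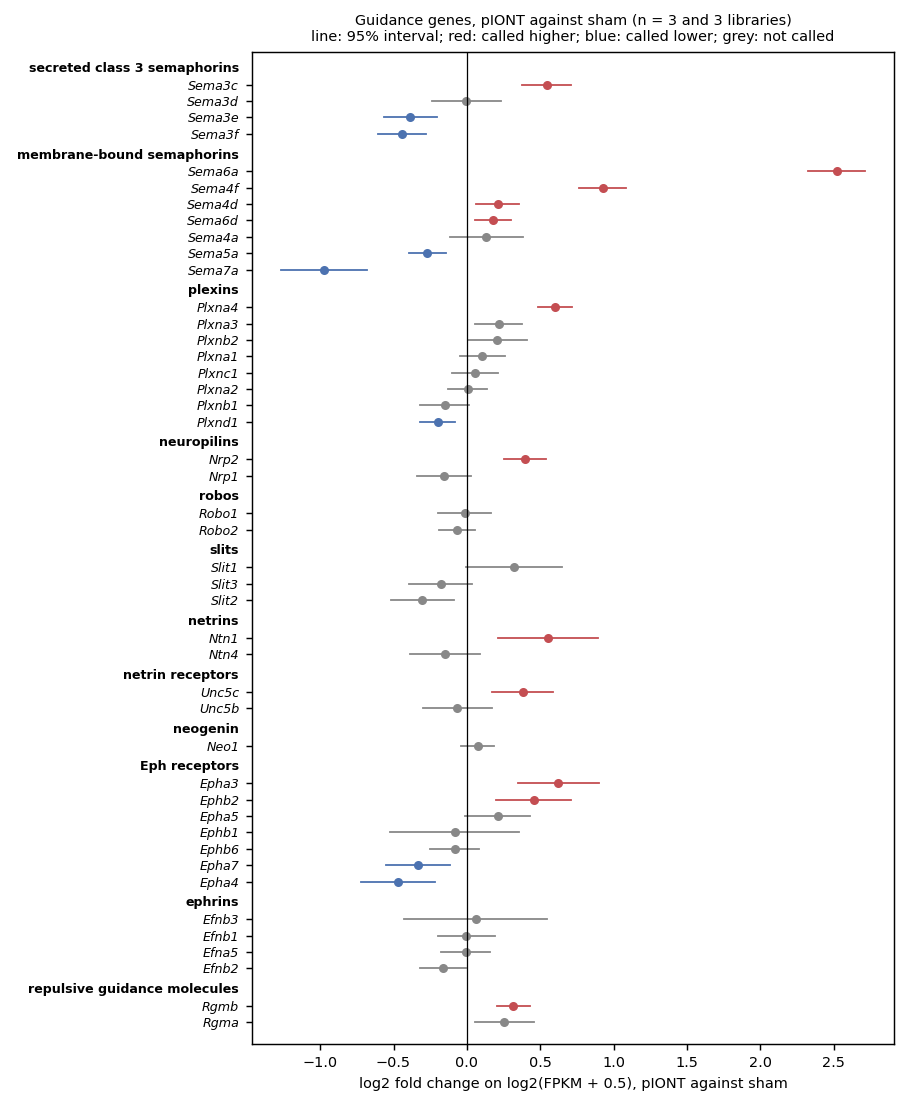
Log2 fold change of each of the 44 tested guidance genes in pIONT against sham, on log2(FPKM + 0.5), with its 95% interval as a line, grouped by family. Red points were called higher (12), blue points lower (7) and grey points were not called, and Sema6a at 2.52 and Sema7a at -0.98 lie farthest from 0.

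Among the listed membrane-bound semaphorins 4 rose and 2 fell of 7 tested (85.7% called, against 22.8% of all genes tested). Sema6a, a transmembrane ligand of plexin-A2 and plexin-A4, lies on chromosome 18 at 47235598 to 47368870 (GRCm38, as the injection table gives it). Its level was 1.81, 1.92 and 2.10 FPKM in the sham libraries and 14.3, 14.3 and 12.1 FPKM in the pIONT libraries. Every pIONT library was far above every sham library. The log2 difference was 2.52 ± 0.08 (SE; adjusted p = 9.96e-06, limma), with estimates of 2.30 to 2.74 over the alternatives. Sema6d, the other class 6 gene of the list and a ligand of plexin-A1, was at 10.2, 10.3 and 9.54 FPKM in the sham libraries. In the pIONT libraries Sema6d was at 11.1, 12.0 and 11.1 FPKM, higher in each by a small margin. Its difference of 0.18 ± 0.05 (SE; adjusted p = 0.0484, limma) was called in 5 of 15 alternatives. The level of Sema6a relative to Sema6d was 0.178, 0.187 and 0.220 in sham and 1.29, 1.20 and 1.09 in pIONT libraries, so that Sema6a went from the lower to the higher of these genes in FPKM. Class 6 also holds Sema6b and Sema6c, outside the list, and both were called lower. Sema6c averaged 15.5 FPKM in sham and 10.4 FPKM in pIONT libraries, at -0.56 (adjusted p = 0.0111, limma). Sema6b averaged 2.59 and 1.63 FPKM, at -0.53 (adjusted p = 0.0125, limma).

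Sema4f, a transmembrane class 4 semaphorin, was at 17.0, 17.4 and 18 FPKM in the sham libraries and 34.5, 36.1 and 30.4 FPKM in the pIONT libraries. The groups were well apart, and the log2 difference was 0.93 ± 0.07 (SE; adjusted p = 0.000309, limma). Sema4d, a ligand of plexin-B1 that is also shed from immune cells, was at 6.99, 6.50 and 6.12 FPKM in the sham libraries and 8.00, 7.54 and 7.35 FPKM in the pIONT libraries. The lowest pIONT value was close above the highest sham value, and the difference of 0.21 ± 0.06 (SE; adjusted p = 0.0491, limma) was called in 6 of 15 alternatives. Sema4a did not pass, with overlapping libraries and a 95% interval of -0.12 to 0.38.

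Sema7a, a lipid-anchored semaphorin that binds plexin-C1 and integrins and promotes axon growth, had the highest level of the members in sham. It was at 44.9, 52.4 and 51.6 FPKM in the sham libraries and 26.8, 20.5 and 28.2 FPKM in the pIONT libraries. All pIONT libraries were below all sham libraries, with the lowest value in pIONT 2, and the log2 difference was -0.98 ± 0.12 (SE; adjusted p = 0.00326, limma). Its receptor gene Plxnc1 averaged 18.1 FPKM in sham and 18.8 FPKM in pIONT libraries and did not pass, with a 95% interval of -0.10 to 0.21. The level of Sema7a relative to Plxnc1 was 2.62 to 2.95 in sham and 1.16 to 1.45 in pIONT libraries. Sema5a, which carries thrombospondin repeats, was at 6.17, 6.10 and 6.15 FPKM in the sham libraries and 4.98, 4.74 and 5.31 FPKM in the pIONT libraries, lower in each pIONT library. Its difference was -0.27 ± 0.05 (SE; adjusted p = 0.0139, limma), and the call was lost without sham 3 (adjusted p = 0.0535, limma). The summed FPKM of the 7 listed membrane-bound semaphorins was 91.1 to 97.9 in sham and 98.0 to 104 in pIONT libraries, nearly touching. The share of Sema7a in that sum was 51.9% ± 2.28 in sham and 25.0% ± 4.15 in pIONT (SD, n = 3).

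Of the listed secreted class 3 semaphorins, 1 rose and 2 fell of 4 tested (75% called, against 22.8% of all genes tested). Sema3c, which acts through both neuropilins, was at 2.37, 2.34 and 2.31 FPKM in the sham libraries and 3.60, 3.98 and 3.35 FPKM in the pIONT libraries, without overlap. Its log2 difference was 0.54 ± 0.07 (SE; adjusted p = 0.00348, limma). Sema3f, a repellent that acts through neuropilin-2, had the highest level of the listed class 3 members. It was at 8.31, 7.99 and 8.24 FPKM in the sham libraries and 6.36, 5.31 and 6.05 FPKM in the pIONT libraries. It fell in every pIONT library, with a difference of -0.44 ± 0.07 (SE; adjusted p = 0.00615, limma). Sema3e, which binds plexin-D1 without a neuropilin, was at 2.61, 2.65 and 2.69 FPKM in the sham libraries and 1.93, 1.72 and 2.11 FPKM in the pIONT libraries. It was lower in every pIONT library, at -0.38 ± 0.08 (SE; adjusted p = 0.0137, limma), and was not called without sham 3 (adjusted p = 0.0552, limma). Sema3d averaged 0.729 FPKM in sham and 0.727 FPKM in pIONT libraries, and its 95% interval was -0.24 to 0.23. Sema3a, the neuropilin-1 ligand known from sensory axon repulsion, was at 0.0097 to 0.05 FPKM, an estimated 4 to 19 reads per library, and was not tested. Over the 5 listed members of the class, Sema3f made up 58.7% of the summed FPKM in sham and 48.3% in pIONT libraries, and Sema3c 16.8% and 29.9%. These are not shares of the whole class, as class 3 genes outside the list were at higher levels. Sema3b averaged 70.5 FPKM in sham and 69.6 FPKM in pIONT libraries and Sema3g 15.6 and 14.3 FPKM, and neither was called.

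**Figure D2:**
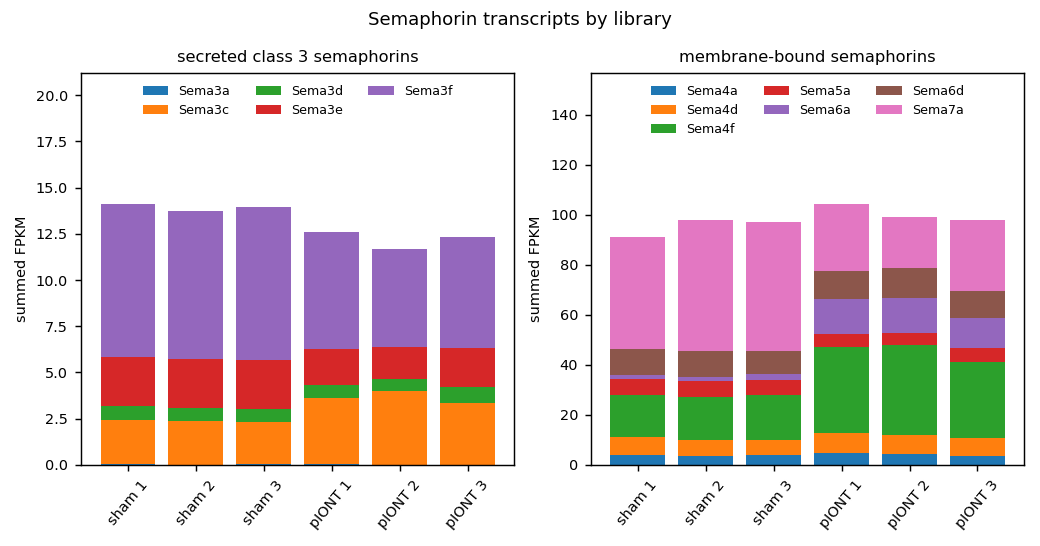
Summed FPKM of the listed secreted class 3 semaphorins (left) and the listed membrane-bound semaphorins (right) in each of the 6 libraries of the surgery experiment. Bars are stacked by gene, with the axes starting at 0. In pIONT libraries the segments of Sema3c, Sema4f and Sema6a are taller and those of Sema3f and Sema7a shorter than in every sham library.

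Among the semaphorin receptors, 1 of 8 plexins rose and 1 fell, and 1 of 2 neuropilins rose. The share called of the plexins, 25%, was near the 22.8% of all genes tested. Plxna4, a receptor of Sema6a and, with neuropilin-1, of Sema3a, was at 7.59, 8.07 and 7.52 FPKM in the sham libraries and 12.3, 12.1 and 11.5 FPKM in the pIONT libraries. The groups were well apart, with a log2 difference of 0.60 ± 0.05 (SE; adjusted p = 0.000532, limma). Plxna2, the other receptor of Sema6a, averaged 5.71 and 5.73 FPKM, and its 95% interval was -0.13 to 0.14. Plxnd1, the receptor of Sema3e and the highest plexin, was at 23.2, 24.1 and 23.9 FPKM in the sham libraries and 21.7, 20.8 and 19.4 FPKM in the pIONT libraries. It was lower in each pIONT library, at -0.20 ± 0.05 (SE; adjusted p = 0.0302, limma), and was called in 7 of 15 alternatives. The remaining plexins did not pass. Of these Plxna3, which partners with neuropilin-2 for Sema3f, came nearest at 0.22 ± 0.07 (SE; adjusted p = 0.0588, limma) and was called in 3 of 15 alternatives.

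Nrp2, the co-receptor of Sema3f and Sema3c, was at 9.20, 8.87 and 8.61 FPKM in the sham libraries and 11.3, 12.9 and 11.5 FPKM in the pIONT libraries. The groups did not overlap, and the log2 difference was 0.40 ± 0.06 (SE; adjusted p = 0.00611, limma). Nrp1, the co-receptor of Sema3a and of vascular endothelial growth factor, overlapped between the groups and did not pass, with a 95% interval of -0.34 to 0.03. The ratio of Nrp2 to Nrp1 was 1.36 to 1.55 in sham and 2.15 to 2.18 in pIONT libraries. Exons of 6 members overlap genes on the opposite strand in GENCODE vM21, by 10.7% of their bases in Plxna1, 4.65% in Rgma, 2.68% in Plxnb1, 2.17% in Ephb1, 0.78% in Plxna4 and 0.617% in Unc5c, and whether the counting used strand was not given in the sources used here.

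Of the slit and robo members none of 5 tested passed. As 22.8% of all genes tested were called, a set this small says little about these families. Robo4, a family gene outside the list, was lower at -0.33 (adjusted p = 0.0221, limma). Slit1, the most abundant slit, was at 23.4, 16.5 and 24.3 FPKM in the sham libraries and 27.8, 26.0 and 25.6 FPKM in the pIONT libraries. Its sham values were spread by the low sham 2, and the log2 difference of 0.32 ± 0.14 (SE; adjusted p = 0.139, limma) did not pass. Slit2 was lower in every pIONT than in every sham library, averaging 1.38 against 1.82 FPKM, and missed the threshold at -0.30 ± 0.09 (SE; adjusted p = 0.0534, limma), with a call in 4 of 14 alternatives. Slit3 did not pass, with a 95% interval of -0.39 to 0.03. Robo2, the more abundant of the slit receptors measured, was at 8.23, 8.60 and 8.31 FPKM in the sham libraries and 8.12, 7.54 and 8.29 FPKM in the pIONT libraries. Its libraries overlapped and its 95% interval was -0.19 to 0.05, and that of Robo1 was -0.20 to 0.16.

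Of the netrins and their receptors, 1 of 2 and 1 of 2 tested genes rose, all at low levels. Of all genes tested 10.5% were called higher, and sets of 2 are too small to compare with that share. Ntn1, the classical netrin, was at 0.860, 0.781 and 0.714 FPKM in the sham libraries and 1.45, 1.73 and 1.04 FPKM in the pIONT libraries. All pIONT values were higher but widely spread, and the log2 difference of 0.55 ± 0.14 (SE; adjusted p = 0.0336, limma) was called in 8 of 14 alternatives. Ntn4, the more abundant netrin, was at 3.77, 2.88 and 2.92 FPKM in the sham libraries and 2.86, 2.92 and 2.65 FPKM in the pIONT libraries, overlapped and did not pass, with a 95% interval of -0.39 to 0.09. Unc5c, a repulsive netrin receptor, was at 1.03, 0.824 and 0.893 FPKM in the sham libraries and 1.30, 1.34 and 1.38 FPKM in the pIONT libraries. It was higher in each pIONT library, at 0.38 ± 0.09 (SE; adjusted p = 0.0229, limma), and was called in 7 of 14 alternatives. Unc5b, of the same family, did not pass, with a 95% interval of -0.30 to 0.17. Dcc, the attractive netrin receptor, was at 0.114 to 0.211 FPKM in sham and 0.0859 to 0.0950 FPKM in pIONT libraries, an estimated 32 to 67 reads, and was not tested.

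Rgmb, a lipid-anchored co-receptor of bone morphogenetic proteins that binds neogenin, was the second highest member in sham. Its level was 25.6, 26.6 and 25.9 FPKM in the sham libraries and 34.0, 33.1 and 30.7 FPKM in the pIONT libraries. The groups did not overlap, and the log2 difference was 0.32 ± 0.05 (SE; adjusted p = 0.00598, limma). Rgma, a repellent of the same family, averaged 2.15 and 2.67 FPKM and did not pass, at 0.26 ± 0.09 (SE; adjusted p = 0.0723, limma). Their receptor gene Neo1 was at 7.91, 7.79 and 7.61 FPKM in the sham libraries and 7.93, 8.57 and 8.11 FPKM in the pIONT libraries. Its pIONT values lay just above sham, and its 95% interval was -0.04 to 0.19.

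Of the listed Eph receptors 2 rose and 2 fell of 7 tested (57.1% called, against 22.8% of all genes tested), and those called were at low levels. Epha3, which binds A-type ephrins, was at 0.315, 0.296 and 0.329 FPKM in the sham libraries and 0.670, 0.923 and 0.680 FPKM in the pIONT libraries, an estimated 69 to 75 and 149 to 235 reads. The groups did not overlap, with a log2 difference of 0.62 ± 0.12 (SE; adjusted p = 0.0117, limma). Epha3, counted among the 2 that rose, passed the filter only through its pIONT libraries. Ephb2, which binds B-type ephrins, was at 0.556, 0.453 and 0.510 FPKM in the sham libraries and 0.856, 1.02 and 0.771 FPKM in the pIONT libraries. It was higher in each pIONT library, at 0.46 ± 0.11 (SE; adjusted p = 0.0253, limma), and was called in 8 of 14 alternatives. Epha4, which binds ephrins of both types, was at 1.77, 1.83 and 1.54 FPKM in the sham libraries and 1.03, 0.967 and 1.31 FPKM in the pIONT libraries. It fell without overlap, at -0.47 ± 0.11 (SE; adjusted p = 0.0222, limma), and was called in 8 of 14 alternatives. Epha7, a receptor of A-type ephrins, was at 1.93, 2.05 and 2.02 FPKM in the sham libraries and 1.61, 1.25 and 1.61 FPKM in the pIONT libraries. It was lower in each pIONT library, at -0.33 ± 0.09 (SE; adjusted p = 0.0425, limma), and was called in 5 of 14 alternatives. Ephb6, which lacks kinase activity and was the highest Eph receptor gene, was at 17.6, 17.4 and 19.2 FPKM in the sham libraries and 17.9, 17.8 and 15.5 FPKM in the pIONT libraries, overlapped and did not pass. Epha5, higher in each pIONT library, and Ephb1, which overlapped, did not pass either. None of the 4 listed ephrin genes passed, a set too small to compare with the 22.8% called of all genes tested. The highest, Efnb1, was at 10.8, 10.2 and 9.95 FPKM in the sham libraries and 9.67, 11.7 and 9.52 FPKM in the pIONT libraries, with overlap and a 95% interval of -0.20 to 0.19. Efnb2 was lower in every pIONT than in every sham library, averaging 6.25 against 7.06 FPKM. Its 95% interval was -0.32 to -0.01, but it did not pass (adjusted p = 0.118, limma). Efna5 and Efnb3 overlapped.

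**Figure D3:**
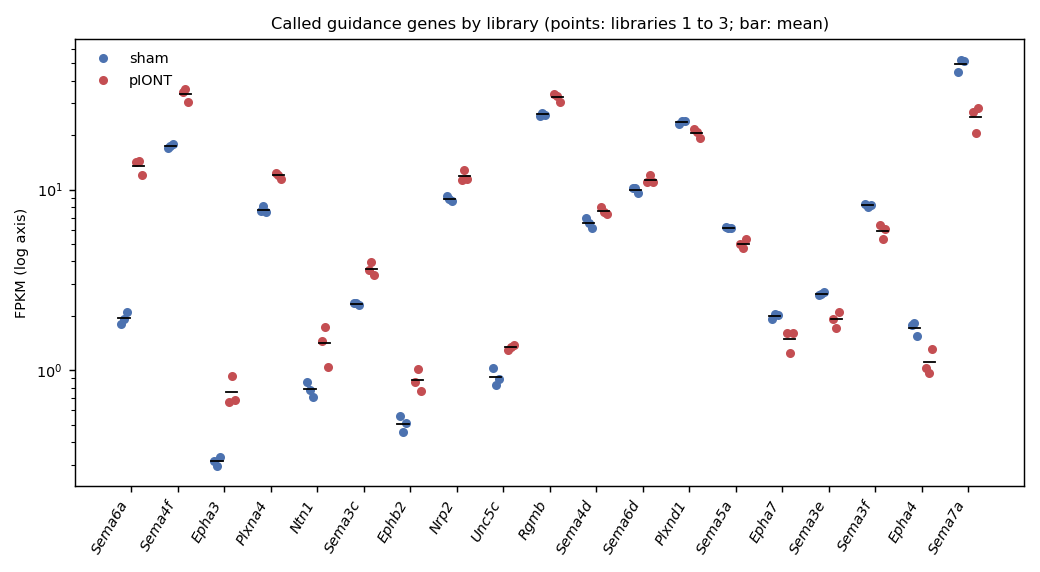
FPKM of the 19 called guidance genes in each sham and pIONT library, on a log axis, ordered by log2 fold change from Sema6a to Sema7a. Points are libraries 1 to 3 from left to right and the bar is their mean, and the 3 pIONT points lie wholly above or wholly below the 3 sham points for every gene shown.

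Promoters, taken as 250 bases before to 50 bases after the start of the gene, are shown for the called members with the largest rises and falls among those with a window in the RefSeq table, so that starts of genes that moved in opposite directions can be read side by side. The sequences are RefSeq windows of build GRCm38.p6, for Sema4f at chr6:82939720-82940019 (minus strand), Epha3 at chr16:63864126-63864425 (minus strand), Sema7a at chr9:57939862-57940161 (plus strand) and Epha4 at chr1:77515039-77515338 (minus strand). Capitals mark matches, on either strand, to the motifs searched: AP-1 (TGANTCA), CRE (TGACGTCA), SOX (ACAAAG) and STAT (TTCNNNGAA). No match shown overlaps another.
Sema4f: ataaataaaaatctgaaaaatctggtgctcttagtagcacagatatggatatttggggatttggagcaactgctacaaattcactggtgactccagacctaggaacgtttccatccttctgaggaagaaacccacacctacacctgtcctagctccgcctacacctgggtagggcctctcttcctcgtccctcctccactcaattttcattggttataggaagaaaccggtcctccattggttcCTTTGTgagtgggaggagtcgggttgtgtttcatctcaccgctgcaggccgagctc
Epha3: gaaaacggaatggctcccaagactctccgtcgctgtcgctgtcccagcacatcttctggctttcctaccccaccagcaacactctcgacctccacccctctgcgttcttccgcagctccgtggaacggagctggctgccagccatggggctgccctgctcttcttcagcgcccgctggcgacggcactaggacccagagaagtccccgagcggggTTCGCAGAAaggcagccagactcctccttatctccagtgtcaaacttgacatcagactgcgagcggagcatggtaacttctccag
Sema7a: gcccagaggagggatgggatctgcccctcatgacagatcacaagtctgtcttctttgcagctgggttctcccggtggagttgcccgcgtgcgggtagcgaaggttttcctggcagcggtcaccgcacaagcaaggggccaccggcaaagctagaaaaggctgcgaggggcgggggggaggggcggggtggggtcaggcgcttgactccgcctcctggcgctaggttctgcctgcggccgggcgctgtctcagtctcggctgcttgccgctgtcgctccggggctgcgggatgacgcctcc
Epha4: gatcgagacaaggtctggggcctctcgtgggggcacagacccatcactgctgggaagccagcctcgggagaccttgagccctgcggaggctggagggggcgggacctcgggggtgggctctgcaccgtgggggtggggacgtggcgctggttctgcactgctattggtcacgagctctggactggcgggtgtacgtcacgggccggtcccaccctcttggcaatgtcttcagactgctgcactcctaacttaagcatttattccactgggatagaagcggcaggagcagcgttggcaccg
The Sema4f window held 1 SOX match, on the opposite strand, with its first base 6 bases before the start. The Epha3 window held 1 STAT match, with its first base 35 bases before the start, and the windows of Sema7a and Epha4 held no match. Of the 46 members, 37 had windows in the table, 49 in all. The SOX motif was in 8 of these 49 (16.3%) and in 18.7% of all 32851 promoter windows. AP-1 was in 1 of 49 (2.04%) against 7.81%, STAT in 2 (4.08%) against 8.30% and CRE in 0 against 1.79%. By direction, SOX was found in 4 of 14 windows of members called higher and 0 of 7 of members called lower. It was in 3 of 27 windows of members not called, and the remaining window was of a member not tested. Windows are not separate genes, as members such as Rgmb and Sema4d had several. Sema6a, Plxna4 and Ntn1, called higher, and Sema3f, called lower, had none. A match is a description of these letters and not a binding site.

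Other genes of these families and the intracellular machinery were counted from lists of symbols, also chosen with earlier results of these data known. Of 33 further family genes 28 were tested, and 3 rose and 8 fell, 39.3% of those tested against 22.8% of all genes (10.5% higher and 12.3% lower). The largest rise was Flrt3, a membrane protein that binds Unc5 receptors, with 2.09, 1.68 and 2.31 FPKM in sham and 24.2, 26.8 and 21.6 FPKM in pIONT libraries and a log2 difference of 3.29 ± 0.11 (SE; adjusted p = 1.33e-05, limma). Draxin, a secreted ligand of Dcc and netrin, was at 0.232, 0.294 and 0.327 FPKM in sham and 2.98, 2.85 and 1.75 FPKM in pIONT libraries (adjusted p = 0.000781, limma). It passed the filter only through its pIONT libraries. The netrin-G genes Ntng1 and Ntng2 were lower with log2 differences of -0.69 and -0.44 (adjusted p = 0.0106 and 0.00641, limma), and Epha10, an Eph receptor without kinase activity, with -0.62 (adjusted p = 0.00659, limma). The list had 7 called genes without sham 2, 7 without sham 3 and 7 without pIONT 1, against 11 with all libraries. The share called of all genes tested was 14.1%, 11.5% and 16.8% in those 3 settings, against 22.8%.

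Of 41 intracellular effectors, all tested, 13 rose and 4 fell, 41.5% against the same 22.8%. Rnd1, whose product binds plexins, was at 1.29, 1.08 and 1.44 FPKM in sham and 6.05, 6.25 and 5.21 FPKM in pIONT libraries, a log2 difference of 1.84 ± 0.10 (SE; adjusted p = 9.21e-05, limma). Crmp1, a collapsin response mediator downstream of semaphorins, rose by 0.61, and the kinase genes Limk2 and Rock2, which act on the actin cytoskeleton, rose by 0.29 and 0.30. Chn1, a Rac regulator downstream of EphA4, was lower, at -0.30 (adjusted p = 0.00772, limma). The effector calls numbered 17 with all libraries, 6 without sham 1, 9 without sham 2, 5 without sham 3, 10 without pIONT 1 and 11 without pIONT 2. The share called of all genes tested was 22.8%, 15.3%, 14.1%, 11.5%, 16.8% and 16% in the same order. Without sham 1 or sham 3 the calls among the 41 effectors were thus close to that share. Markers of several cell types moved in the same libraries. The summed FPKM of 8 genes of injured sensory neurons was 143 to 146 in sham and 1865 to 2965 in pIONT libraries, and 8 of 8 rose. Sprr1a and Ecel1 among them averaged 0.134 and 0.240 FPKM in sham and passed the filter only through their pIONT libraries. The summed FPKM of 8 macrophage genes was 111 to 197 in sham and 230 to 645 in pIONT libraries, with 4 of 8 higher. That of 6 myelinating Schwann cell genes was 4513 to 5000 and 3737 to 4008, with 5 of 6 lower. Of 8 markers of ganglion neurons, Tubb3 and Prph rose and Isl1, Snap25, Nefl and Pou4f1 fell, and of 6 satellite glia genes 2 rose, Glul and Cdh19. Fibroblast and meningeal genes had no call and endothelial genes 1, lower. Their part in the guidance gene results was not tested, and in a whole ganglion fewer cells of a type and less RNA per cell cannot be told apart.

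**Figure D4:**
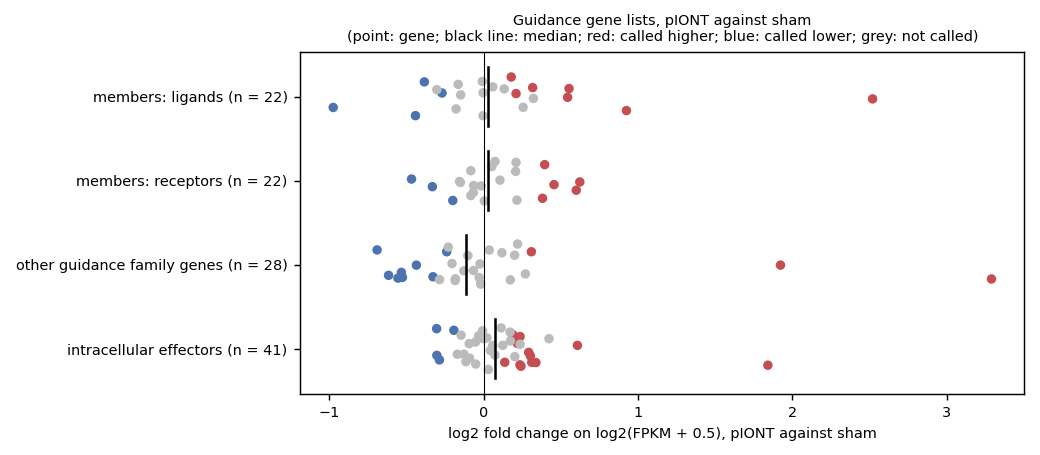
Log2 fold changes in pIONT against sham, on log2(FPKM + 0.5), of the tested member ligands (22), member receptors (22), other guidance family genes (28) and intracellular effectors (41). Points are genes, spread vertically for legibility, black lines are medians, and red and blue points were called higher and lower. The medians lie between -0.12 and 0.07 and the points farthest to the right are Flrt3, Sema6a, Draxin and Rnd1.

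The injection experiment compared the same genes 6 hours after UCN1 with PBS. None of the 44 tested members was called, against 0.601% of the 16139 genes tested. At an unadjusted p of 0.05, 2 members passed, Rgmb and Sema4a, against 13.1% of all genes tested. None was called in the 13 alternative settings either, but those called 0.00711% to 1.61% of all genes tested, so they say little about stability. The ranges of PBS and UCN1 were apart in 16 of 44 members (36.4%), against 45.5% of all genes tested. The largest 95% interval limits were -1.51 and 0.82, and the median interval reached 0.29 to either side of its estimate on the log2 scale. With 2 libraries per group, these intervals set what could be detected. The summed pituitary FPKM also differed between these groups, at 122 and 124 in PBS against 9.14 and 9.61 in UCN1 libraries. Its part in the estimates was not tested.

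Rgmb was at 124 and 115 FPKM in PBS and 149 and 152 FPKM in UCN1 libraries. Both UCN1 values were higher, and the log2 fold change was 0.34 (SE 0.08, 95% interval 0.14 to 0.53), which did not pass (limma adjusted p = 0.159, 0.0866 to 0.653 over the alternatives). Sema4a was at 13.0 and 10.3 FPKM in PBS and 6.94 and 9.92 FPKM in UCN1 libraries, at -0.46 (limma adjusted p = 0.367). Epha3 had the lowest estimate, -0.72 (95% interval -1.51 to 0.08, limma adjusted p = 0.424), from 2.16 and 1.10 to 0.958 and 0.579 FPKM, an estimated 24 to 85 reads per library. Dcc, which was not tested, was at 0.392 and 0.388 FPKM in PBS and 0.139 and 0.200 FPKM in UCN1 libraries, an estimated 15 to 42 reads.

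Sema6a, Sema7a and Sema4f, the 3 members with the largest differences on log2(FPKM + 0.5) after pIONT, had intervals that included 0 after UCN1. Sema6a was at 7.25 and 8.05 FPKM in PBS and 6.16 and 7.62 FPKM in UCN1 libraries, with a 95% interval of -0.52 to 0.22. Sema7a was at 95 and 98.5 FPKM against 90.9 and 96.9 FPKM, with an interval of -0.24 to 0.15. Sema4f was at 33.7 and 28.9 against 35.3 and 37.4 FPKM, higher in both UCN1 libraries, with an interval of -0.04 to 0.47. For Plxna4 and Nrp2 the intervals were -0.09 to 0.48 and -0.40 to 0.14. Of the 12 members higher after pIONT, 6 had a positive and 6 a negative estimate after UCN1, and all 7 members lower after pIONT had a negative one, of -0.16 to -0.01. Negative estimates were common among the members: the 25 not called after pIONT had 9 positive and 16 negative ones, and 15 of all 44 (34.1%) were positive, against 48.5% of all genes tested. The experiments share no library, and the difference between them was not tested because the tables differ in gene length and annotation. Flrt3 and Rnd1 did not pass after UCN1, with log2 differences of -0.08 and -0.24.

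**Figure D5:**
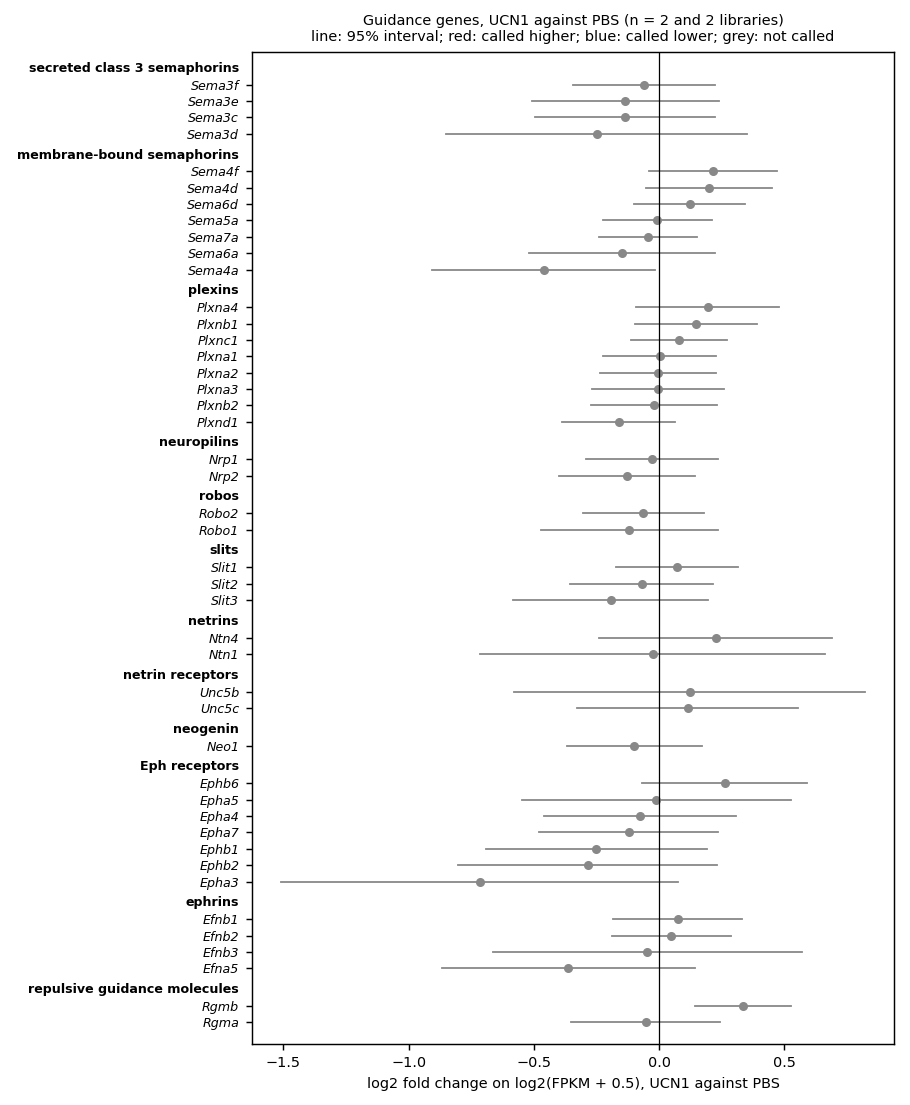
Log2 fold change of each of the 44 tested guidance genes in UCN1 against PBS, on log2(FPKM + 0.5), with its 95% interval as a line, grouped by family. No gene was called, so all points are grey, and the estimates run from -0.72 for Epha3 to 0.34 for Rgmb.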

How the data were processed

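RNA was measured in 10 trigeminal ganglion libraries. The authors deposited 1 table of FPKM values per experiment. STAR, HTSeq, DESeq2 and GRCm39 are named, without version or role, per the submitters' processing notes. Per the labels, TRIzol was used for extraction and the NEBNext Ultra II kit for sequencing libraries. Of the gene identifiers found in GENCODE vM21 (GRCm38), 1.99% in the surgery and 99.42% in the injection table had the same start and end, so GRCm38 coordinates are quoted from the injection table. Symbols came from the GENCODE vM21 name table.

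FPKM multiplied by gene length (union of exons, or mean transcript length for the injection table) gave steps of whole reads within 0.1 for 92.6% to 93.0% and 98.8% to 99.0% of low values, which gave depth and estimated reads. Genes with a mean of at least 0.5 FPKM were tested with limma 3.58.1 (R 4.3.3) after taking log2(FPKM + 0.5), with the prior variance following mean expression, within each table, over all genes, a scale that understates changes of low genes. The code was tested on simulated data. Libraries of a group differed by more than sampling noise (chi-square per degree of freedom 6.24 to 16.1). Nothing in the labels says that libraries stem from separate animals, so the p-values cover the spread among these libraries alone, and that spread may be technical. Members and lists were chosen with earlier results of these data known. Per-library values were given for called members and the highest of each family. From the other lists up to 5 called genes by smallest p were named, and other genes named from them were chosen after their values were seen.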

Additional observations from a re-analysis of the deposited data

How the results depend on the processing

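The number of called members in pIONT against sham, 19 (12 higher, 7 lower), was 11 to 15 when 1 library was left out, with 6 to 9 higher and 3 to 6 lower. Calls in the other family genes, 11, were 7 to 9 and in the effectors, 17, were 5 to 16. With no filter on low values the other family genes had 7 and the effectors 11 calls, and at a filter of 2 FPKM the other family genes had 6. The share called of all genes was 11.5% to 20.2% with 1 library left out, 10.5% with no filter and 28.2% at 2 FPKM. Members called after UCN1 numbered 0 in each of the 13 alternatives, which called 0.00711% to 1.61% of all genes. In the 4 of these that leave out a library, the lone library of a group is assumed to vary like the other group. These zeros therefore show no stability. Same-numbered libraries did not deviate together (correlations of -0.06, -0.20 and 0.07 between sham and pIONT, 0.04 between PBS and UCN1), so the numbers were not taken to pair them. With the replicate number as a block, 12 members were called, 4 of them lower, and 10 effectors, while calls over all genes went from 22.8% to 14.2%. These settings were also followed for the members in both experiments and for the 10 called genes of smallest p from the other guidance lists in the surgery experiment. Of their values 63 lost a call, 9 gained one and none changed sign while called. The cause of these changes was not tested.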

Other observations

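Of the 5 class 3 semaphorins listed, 4 lie on chromosome 5. In GRCm38, as the injection table gives them, Sema3d is at 12383385 to 12588948, Sema3a at 13125414 to 13602565, Sema3e at 14025276 to 14256689 and Sema3c at 17574281 to 17730268. These neighbours differed in level and direction in the surgery experiment, with Sema3c called higher, Sema3e called lower, Sema3d not called and Sema3a under the filter.

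Some members varied more between libraries of a group than between groups. Efnb3, an ephrin, was highest in sham 1, at 2.33, 1.08 and 1.30 FPKM in sham 1 to 3. Sham 1 was also the library in which pituitary genes and the oligodendrocyte gene Mog (2.68 against 0.0817 and 0.195 FPKM) were high. Ephb1, an Eph receptor, was at 1.35, 0.686 and 1.13 FPKM in sham 1 to 3. The median coefficient of variation over tested members was 5.43% in sham and 8.12% in pIONT libraries.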
